A study of Mus musculus with 4 samples.

Results

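The megalin and cubilin endocytic receptor complex was followed through 6 genes, named by symbol: the receptors Lrp2 (megalin) and Cubn (cubilin), the membrane anchor Amn (amnionless), the adaptor Dab2, the receptor chaperone Lrpap1 and the secreted ligand Clu (clusterin). All 6 were among the 55397 genes listed and all 6 passed the filter of a mean of at least 10 normalized counts, which left 15809 genes. The genes were chosen with their values in the 2 groups known, so their difference between the groups is described here and was not tested. The RNA came from primary mouse embryonic fibroblasts (MEFs) of Prox1(fl/fl) C57BL/6J embryos at E13.5, cells in which Cre can remove part of the gene for the transcription factor Prox1. MEFs were transduced with lentivirus for 4in1, a vector that carries the reprogramming factors for induced hepatocytes, together with Cre-GFP (Prox1 KO, 2 libraries) or with dCre-GFP, an inactive Cre (control, 2 libraries). Both groups therefore carried the floxed alleles, 4in1 and GFP, and both were kept in hepatocyte culture medium until day 14. MEF lines were made from the limbs of several pooled embryos, so a replicate is a culture rather than 1 animal, and whether the replicate number names a MEF line was not stated.

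Megalin is a very large member of the low-density lipoprotein (LDL) receptor family, and cubilin is a large peripheral protein that reaches the plasma membrane only when bound to amnionless. Together they take up filtered and luminal proteins, vitamin carriers and lipoproteins through clathrin-coated pits, mainly in the proximal tubule of the kidney and in the visceral endoderm of the yolk sac. DAB2 links the cytoplasmic tail of megalin to the clathrin coat, the product of Lrpap1 (receptor-associated protein, RAP) keeps LDL receptor family members free of ligand in the endoplasmic reticulum, and clusterin is an extracellular chaperone that megalin can bind.

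The genes lie on 5 chromosomes of GRCm38, all annotated as protein-coding. Lrp2 (ENSMUSG00000027070) lies at chr2:69424340-69586065 on the minus strand and Cubn (ENSMUSG00000026726) at chr2:13276338-13491813, also on the minus strand. Amn (ENSMUSG00000021278) lies at chr12:111271095-111276426 on the plus strand. Dab2 (ENSMUSG00000022150) lies at chr15:6299788-6440712 on the plus strand, Lrpap1 (ENSMUSG00000029103) at chr5:35091501-35105766 on the minus strand and Clu (ENSMUSG00000022037) at chr14:65968483-65981547 on the plus strand. The union of annotated exons was 16701 bases for Lrp2, 14935 for Cubn, 7342 for Dab2, 4116 for Lrpap1, 3437 for Clu and 1843 for Amn. The coding part of Lrp2 was 13980 bases and that of Amn 1374. Exons of the antisense gene Gm13270 overlapped 2.46% of the exon bases of Cubn, and those of the antisense gene Gm18888 2.87% of the exon bases of Dab2. Whether strand was used in counting was not stated, so reads from those stretches cannot be assigned with certainty.

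The sequences just before the transcription starts of Lrp2, Cubn and Amn, the receptor subunits, are shown because these genes were lower together and their promoters were of different composition. They are the RefSeq windows before each gene's start on GRCm38.p6, without bases that GENCODE places in the gene, read 5′ to 3′ on the gene's strand, and capitals mark CG dinucleotides. Lrp2 is shown for chr2:69586066-69586279 (minus strand), Cubn for chr2:13491877-13492126 (minus strand) and Amn for chr12:111270846-111271094 (plus strand).
Lrp2: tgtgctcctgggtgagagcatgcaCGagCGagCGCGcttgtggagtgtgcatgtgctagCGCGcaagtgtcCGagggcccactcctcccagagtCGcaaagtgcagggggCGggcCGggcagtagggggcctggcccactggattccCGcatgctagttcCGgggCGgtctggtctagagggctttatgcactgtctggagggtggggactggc
Cubn: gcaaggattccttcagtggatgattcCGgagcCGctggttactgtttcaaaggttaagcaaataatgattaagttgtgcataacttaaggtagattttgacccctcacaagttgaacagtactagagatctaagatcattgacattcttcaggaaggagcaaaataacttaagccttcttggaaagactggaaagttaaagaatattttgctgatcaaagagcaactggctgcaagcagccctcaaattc
Amn: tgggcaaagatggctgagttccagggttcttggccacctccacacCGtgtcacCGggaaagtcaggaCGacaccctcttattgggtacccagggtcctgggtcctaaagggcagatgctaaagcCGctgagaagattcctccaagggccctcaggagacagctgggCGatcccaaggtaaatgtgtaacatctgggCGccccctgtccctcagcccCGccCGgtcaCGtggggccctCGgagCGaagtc
Over the whole RefSeq windows, before trimming, GC content was 66.4% for Lrp2, 61.2% for Amn and 39.6% for Cubn, against a median of 52.4% over 32851 mouse promoter windows. The window of Lrp2 held 18 CG dinucleotides, that of Amn 11 and that of Cubn 2. Lrpap1 had a GC content of 60.8%. Dab2 had 2 annotated starts, with 36.8% GC and 2 CG dinucleotides before the upstream start and 60% GC and 17 CG dinucleotides before the other.

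The libraries held 42469031 to 48524008 reads on genes, and normalized counts are these reads divided by the authors' size factors of 0.939 to 1.09. Prox1 itself was at 72.7 and 61.6 normalized counts with Cre and at 60.6 and 25.5 without, so the count summed over the gene was not lower with Cre (log2 difference 0.75 ± 0.27 SE, limma adjusted p = 0.0936). Such a sum also counts exons outside the deleted part and does not check the deletion. The libraries labelled Prox1 KO are therefore called Cre libraries here, after the vector they received. Libraries of the same replicate number resembled each other: Xist, the X-inactivation RNA, was at 14495 and 13944 normalized counts in both replicates 1 and at 4.89 and 1.06 in both replicates 2. Every group difference is therefore given within replicate number as well. The 10 fibroblast markers summed to at least 798096 normalized counts in every library, and of the 12 hepatocyte markers Tat, Pck1, Cyp2e1, Apoc3 and Ahsg were under 10 normalized counts in every library, whereas Alb was at 3838 to 5021, Apoa1 at 1156 to 2283 and Serpina1a at 545 to 1886. Since these are bulk cultures, fewer cells of a type and less RNA per cell cannot be told apart.

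Lrp2 and Cubn, the ligand-binding receptors, were both lower in the Cre libraries, and Lrp2 differed most of the 6 genes. Lrp2 was at 232 and 286 normalized counts in these libraries and at 702 and 743 in the controls, from 223 to 765 reads. The groups did not overlap, and the replicates of each group lay close to each other relative to the gap between the groups. The mean was 259 ± 38.7 (SD, n = 2) against 723 ± 28.8 (SD, n = 2), which is 35.9% of the control mean. The log2 difference was -1.48 ± 0.10 (SE), and it was -1.60 within replicate 1 and -1.37 within replicate 2. Cubn was at 3349 and 3989 normalized counts in the Cre libraries and at 5422 and 7223 in the controls. Its groups did not overlap either, but control replicate 2 stood well above control replicate 1. The mean was 3669 ± 452 against 6322 ± 1273 (SD, n = 2 each), 58.0% of the control, with a log2 difference of -0.78 ± 0.05 (SE) and of -0.69 and -0.86 within the pairs.

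Amn, whose product anchors cubilin in the membrane, was lower by about as much as Cubn. It was at 125 and 189 normalized counts in the Cre libraries and at 212 and 303 in the controls, from 120.0 to 285 reads. The higher Cre library was below the lower control, but in both groups replicate 2 was well above replicate 1, and the gap between the groups was smaller than the gap within them. The mean was 157 ± 45.2 against 258 ± 64.6 (SD, n = 2 each), 60.8% of the control. The log2 difference of -0.72 ± 0.13 (SE) was alike in the pairs, at -0.76 and -0.68.

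Dab2, the adaptor, differed little between the groups. It was at 3259 and 4121 normalized counts in the Cre libraries and at 3822 and 4806 in the controls. Cre replicate 2 was above control replicate 1, so Dab2 was the member whose groups overlapped. Within the pairs it was lower by similar amounts, -0.23 and -0.22 on the log2 scale, and the mean was at 85.5% of the control (log2 difference -0.23 ± 0.04, SE).

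Lrpap1, the chaperone of the receptors in the endoplasmic reticulum, differed least. It was at 9576 and 10079.8 normalized counts in the Cre libraries and at 10364 and 10899 in the controls. The groups did not overlap, yet the mean was still at 92.4% of the control, with a log2 difference of -0.11 ± 0.04 (SE) and of -0.11 in each pair.

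Clu, the secreted ligand and per kilobase the most abundant of the 6, was lower by about as much as Cubn and Amn. It was at 9278 and 11393 normalized counts in the Cre libraries and at 13669 and 20889 in the controls. The groups did not overlap, and control replicate 2 stood apart above the other 3 libraries. The mean was 10335 ± 1495 against 17279 ± 5105 (SD, n = 2 each), 59.8% of the control. The log2 difference was -0.72 ± 0.06 (SE), and the pairs differed in size, with -0.56 within replicate 1 and -0.87 within replicate 2.

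**Figure D1:**
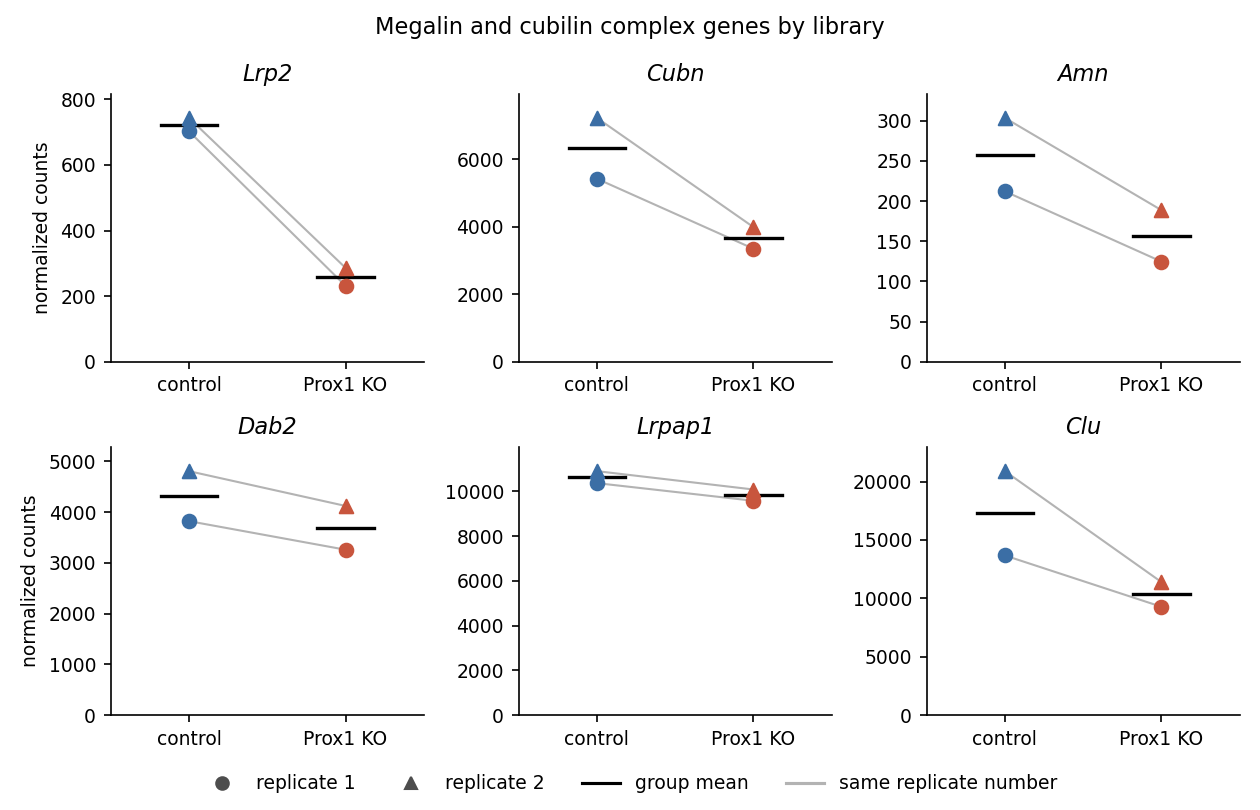
Normalized counts (vertical axes from 0, a scale for each gene) of the 6 genes in each library, with control libraries in blue and Cre libraries (Prox1 KO) in red, circles for replicate 1, triangles for replicate 2, black bars for group means (n = 2) and grey lines joining libraries of the same replicate number. All 12 grey lines run downwards from control to Prox1 KO, most steeply for Lrp2 and least for Lrpap1, and Dab2 is the gene whose groups overlap.

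All 6 genes were lower in both pairs, 5 of them passed the call rule applied to all genes as lower (limma, adjusted p under 0.05, with Lrpap1 outside it) and 0 as higher, and 5 of 6 had groups that did not overlap. Over all 15809 genes, 6.29% were called lower and 5.09% higher, 22.6% had both Cre libraries below both controls and 21.8% had both above. Nothing is read from these counts, since the genes were chosen on this contrast. Their median log2 difference was -0.72, against -0.0022 over all genes.

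Compared per kilobase of exon, the genes kept 1 order in all 4 libraries. From high to low it was Clu, Lrpap1, Dab2, Cubn, Amn and Lrp2, and it was the same in 4 of 4 libraries with the longest transcript as the length. In normalized counts per kilobase, Clu was at 2699 to 6078 and Lrpap1 at 2327 to 2648, and neighbouring ranges overlapped for Dab2 (444 to 655) and Cubn (224 to 484). Amn was at 67.7 to 165. Lrp2 was lowest, at 13.9 and 17.1 in the Cre libraries and at 42.1 and 44.5 in the controls. Among 13944 protein-coding genes tested, the mean level per kilobase put Clu at percentile 96.6, Lrpap1 at 94.3, Dab2 at 72.8, Cubn at 61.4, Amn at 36.6 and Lrp2 at 18.8.

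The balance between the receptors thus differed between the groups. Cubn per kilobase was 16.2 and 15.6 times Lrp2 in the Cre libraries and 8.63 and 10.9 times in the controls. By contrast the ratio of Cubn to Amn, its anchor, was 3.31 and 2.61 in the former and 3.16 and 2.94 in the latter, so the groups overlapped. Lrpap1 exceeded Lrp2 by 168 and 143 times in the Cre libraries and by 59.9 and 59.5 times in the controls. Lrp1, the most abundant receptor of the family here and another client of RAP, exceeded Lrp2 by 625 and 544 times against 192 and 205 times. Among 13 LDL receptor family genes, Lrp2 ranked 12 in both Cre libraries and 11 in both controls. These ratios use the same values as the differences above and were not tested.

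**Figure D2:**
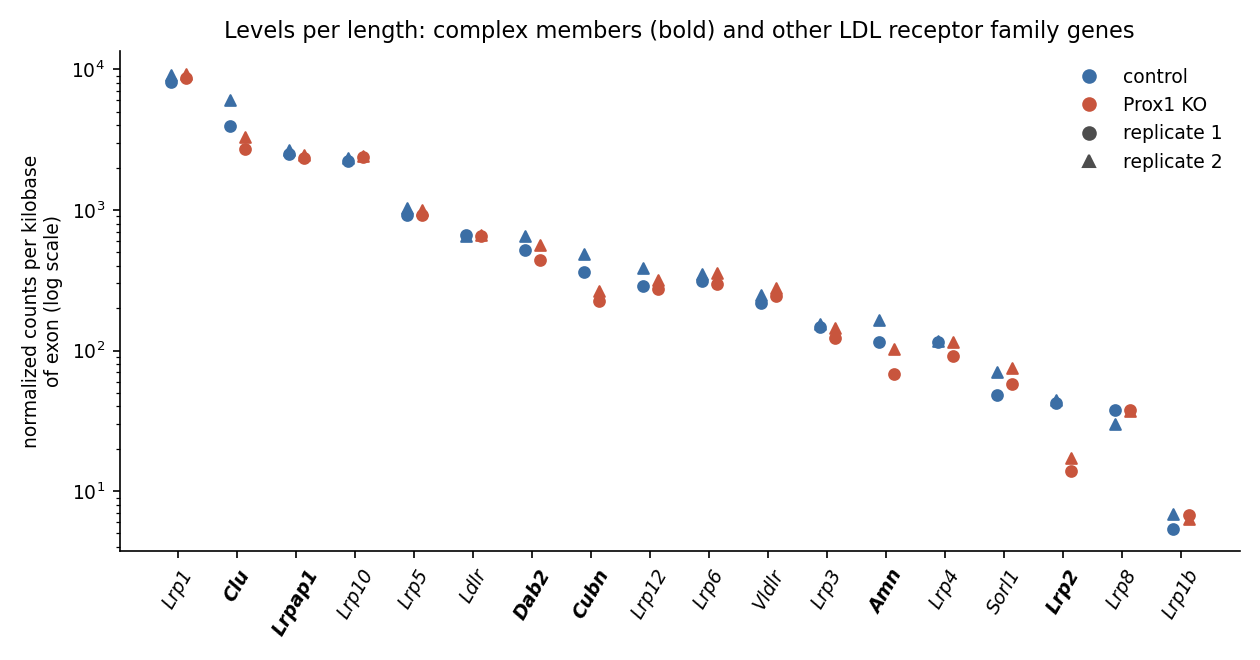
Normalized counts per kilobase of exon (vertical axis, log scale) of the 6 complex genes (bold) and the other 12 LDL receptor family genes, ordered by mean, with control libraries in blue, Cre libraries (Prox1 KO) in red, circles for replicate 1 and triangles for replicate 2. Lrp1 lies at the top of the family, and Lrp2 lies near the bottom at 13.9 to 44.5, where the groups are set apart.

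The other LDL receptor family genes did not show the difference of Lrp2. Of 12 listed and tested, 1 rose and 0 fell, and their median log2 difference was 0.04, against -0.0022 over all genes. The share of all tested genes called was 11.4%. Calls on these and the following lists rest on the replicate block, without which limma called 0 genes of the 7 lists by role, with 20 at an unadjusted p under 0.05. Vldlr, the very-low-density lipoprotein receptor, rose by 0.16 ± 0.05 on the log2 scale (limma adjusted p = 0.0374), a call that DESeq2 did not make (adjusted p = 0.484). Lrp1, the receptor of many proteases and their inhibitors, differed by 0.07 (limma adjusted p = 0.448) and Lrp10 by 0.07 (limma adjusted p = 0.29). The lowest value in the family was -0.18, and no negative value passed the test.

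Secreted ligands of megalin or cubilin were the group among which most calls were made. Of 29 listed, 24 were tested, of which 12 fell, 1 rose and 11 did not pass, and the median log2 difference was -0.19. Calls made up 54.2% of those tested, against 11.4% of all genes. On the marker lists below, the share called was as high or higher in several, with 75% for visceral endoderm, 60% for fibroblast and 57.1% for hepatocyte markers. It was 0% for proximal tubule markers. The genes of Shh, Pth and Cblif (gastric intrinsic factor, the vitamin B12 carrier that cubilin binds) were listed at 0 in all 4 libraries. Trf, which encodes the iron carrier transferrin, was at 700.4 and 878 normalized counts in the Cre libraries and at 2055 and 1829 in the controls, and fell by 1.30 ± 0.09 on the log2 scale (limma adjusted p = 2.86e-07). Ttr (transthyretin, the carrier of thyroid hormone and of retinol-binding protein) was at 136 and 129 against 216 and 287, and fell by 0.90 (limma adjusted p = 0.00105). Apob, the structural apolipoprotein of very-low-density lipoprotein, was at 3508 and 4034 against 5053 and 8124, and fell by 0.77 (limma adjusted p = 8.13e-06). Apoe, an apolipoprotein that LDL receptor family members bind, was at 4185 and 6176 against 7630 and 9799, and fell by 0.77 (limma adjusted p = 2.36e-07). In each of these 4 genes both Cre libraries were below both controls, as in 22.6% of all tested genes. The 4 were named for the size of their change, so nothing is read from this. Of the most abundant ligand genes, B2m (beta-2-microglobulin) fell by 0.21 (limma adjusted p = 0.0188), and Mt2 (metallothionein 2) differed by 0.05 (limma adjusted p = 0.445). Of these 12 genes that fell, Ttr, Apob and Apoa1 are also on the marker lists below.

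Of the clathrin coat and its other cargo adaptors, 23 of 24 were tested, 3 rose and 2 fell, so that 21.7% were called against 11.4% of all genes, with a median log2 difference of 0.02. Gipc2, a scaffold related to the megalin-binding GIPC1, fell by 0.64 (limma adjusted p = 0.00301), and Myo6, the motor that carries newly formed vesicles inwards, fell by 0.22 (limma adjusted p = 0.0139). Epn2 (epsin 2) rose by 0.21 (limma adjusted p = 0.00401) and Cltb (clathrin light chain b) by 0.19 (limma adjusted p = 0.0067). DESeq2 made none of these calls (0 of 24 genes, 4 at an unadjusted p under 0.05). The abundant Clta and Cltc, a light chain and the heavy chain of clathrin, differed by 0.02 each (limma adjusted p = 0.785 and 0.829).

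Genes of endosomal sorting, acidification and recycling gave 1 call among 24 tested, with a median of 0.02. It was Ehd3, a recycling ATPase, which rose by 0.20 (limma adjusted p = 0.0198) and was not called by DESeq2. Lamp1, a lysosomal membrane protein, differed by 0.08 (limma adjusted p = 0.279) and the early endosome GTPase gene Rab5c by 0.05 (limma adjusted p = 0.489). Among the 14 genes of receptor folding in the endoplasmic reticulum, the companions of Lrpap1, limma called 0, with 4 at an unadjusted p under 0.05, edgeR called 1 and DESeq2 0. Their median was -0.03, and the chaperone gene Calr differed by 0.02 (limma adjusted p = 0.802).

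For genes of vitamin B12, folate and vitamin D handling, the pathways downstream of cubilin and megalin uptake, 16 of 19 were tested, 1 rose and 0 fell. That gene was Vdr, the vitamin D receptor, at 875 and 935 normalized counts in the Cre libraries and at 701 and 695 in the controls. It rose by 0.37 ± 0.07 (limma adjusted p = 0.00306), a call that DESeq2 did not make. Extracellular chaperones and complement regulators, the neighbours of Clu in function, gave 2 calls among 7 tested (28.6%, against 11.4% of all genes). A2m (alpha-2-macroglobulin) rose by 0.40 (limma adjusted p = 0.0078; DESeq2 made no call), and Cd55 (decay-accelerating factor) fell by 0.27 (limma adjusted p = 0.00151). The abundant matrix gene Sparc differed by -0.05 (limma adjusted p = 0.582).

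**Figure D3:**
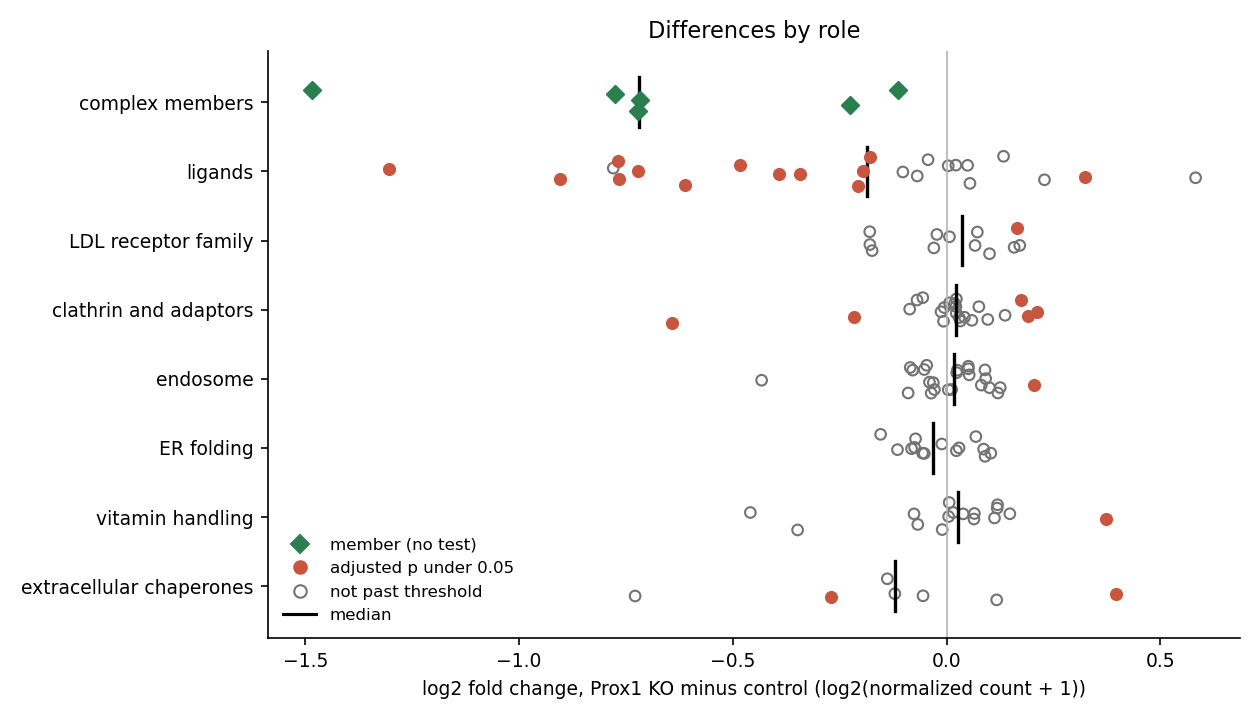
Log2 difference between the Cre libraries and the controls (horizontal axis, on log2 of normalized count plus 1) for the 6 complex genes (green diamonds, not tested) and for the tested genes of 7 lists by role, filled red where the limma adjusted p was under 0.05 and open otherwise, with a black bar at each median. The ligands reach down to -1.30, whereas the medians of the LDL receptor family, clathrin and endosome lists lie at 0.02 to 0.04.

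A comparison that the choice of genes did not use is the one between replicate numbers, which crosses both groups. In it 4 of the 6 genes differed, and all 4 were higher in replicates 2. Of all tested genes 7.88% were called, 4.39% as higher in replicates 2 and 3.49% as lower. Whether genes lower with Cre tend to be higher in replicates 2 was not tested. The share over all genes is therefore not a matched background, and nothing is read from the count. Clu was higher by 0.45 ± 0.06 on the log2 scale (limma adjusted p = 7.05e-05), Amn by 0.55 ± 0.13 (limma adjusted p = 0.0157), Dab2 by 0.33 ± 0.04 (limma adjusted p = 0.000119) and Cubn by 0.33 ± 0.05 (limma adjusted p = 0.000252). For Lrp2 the value was 0.19 ± 0.10 (limma adjusted p = 0.288) and for Lrpap1 0.07 ± 0.04 (limma adjusted p = 0.326). DESeq2 called Cubn and Dab2 only, with adjusted p = 0.535 for Amn and 0.111 for Clu. For Dab2 the difference between replicate numbers was larger than that between the groups, and for Lrp2 the reverse held. The shift was not particular to the 6 genes. Of the 12 other LDL receptor family genes 5 were called, all 5 higher in replicates 2. Of 24 ligand genes tested 9 were called, 6 higher and 3 lower. Of the 7 extracellular chaperone and complement regulator genes tested 3 were called, 2 higher and 1 lower. The other lists by role gave 0 or 1 call each. Fibroblast markers moved with the replicate number as well: 7 of 10 tested were called and all 7 were higher in replicates 2, and Xist differed as given above. The part of cell makeup or of the sex of the embryos in these differences was not tested, and neither can be told apart from the replicate number.

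**Figure D4:**
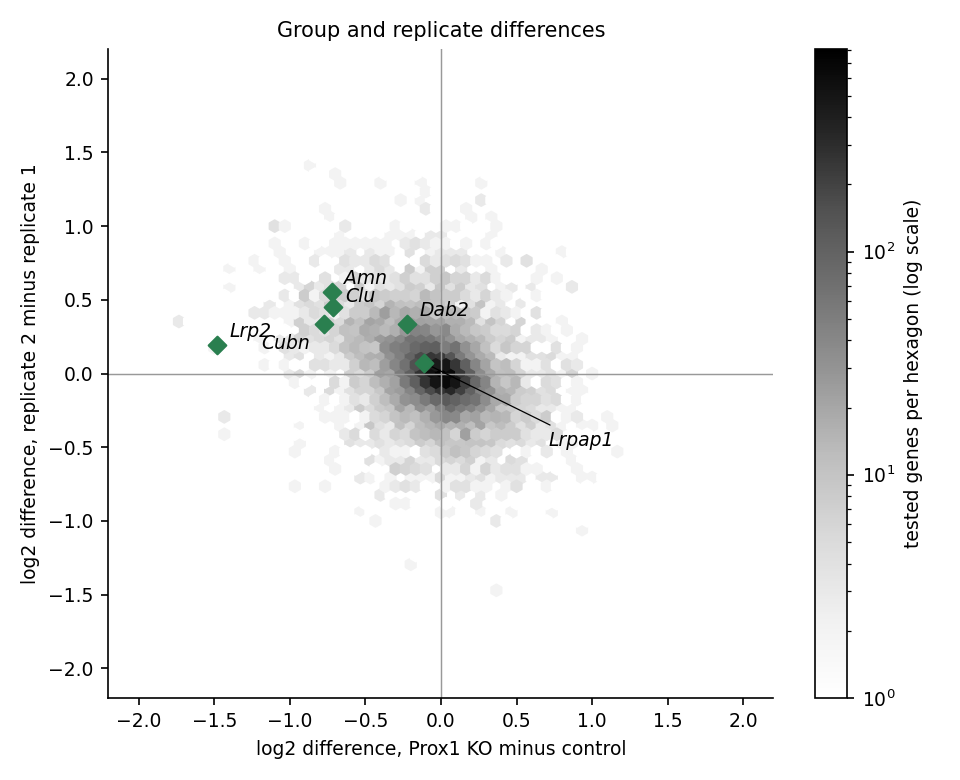
For each gene, the log2 difference between the groups (horizontal axis) against the log2 difference between replicate numbers (vertical axis), with all tested genes within 2 of 0 on both axes as grey hexagons shaded by gene count (log scale) and the 6 complex genes as green diamonds. All 6 lie left of 0 and above 0, with Lrp2 farthest left at -1.48 and Amn highest at 0.55.

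Markers of cell types known for megalin and cubilin moved with the group in part. Over all tested genes, 6.29% were called lower and 5.09% higher. On the yolk sac visceral endoderm list, 6 of 8 tested of 12 fell and 0 rose, with a median of -0.72, and the summed level was 15894 and 16891 normalized counts in the Cre libraries against 22483 and 23438 in the controls. Fgb (a fibrinogen chain) fell by 0.94 (limma adjusted p = 0.000609) and Apoa1, the main apolipoprotein of high-density lipoprotein, by 0.72 (limma adjusted p = 3.63e-05). Afp (alpha-fetoprotein), the most abundant of the list, fell by 0.22 (limma adjusted p = 0.00822). DESeq2 called 4 genes of this list, and neither Apoa1 nor Afp. The defining endoderm genes Sox17, Foxa2, Apoa4 and Tdh were under 10 normalized counts in every library. On the kidney proximal tubule list, 3 of 12 were tested, limma, edgeR and DESeq2 called 0 (1 at an unadjusted p under 0.05 in limma), Slc22a8, Slc5a12, Kap and Miox were at 0 in all 4 libraries, and the summed level of 7131 to 10024 was nearly all Aqp1, a water channel that differed by -0.13 (limma adjusted p = 0.0758). Proximal tubule defining genes were thus at or near 0.

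Hepatocyte and fibroblast markers were lower in part too, where 6.29% of all tested genes were called lower. Of the hepatocyte list 7 of 12 were tested, 4 fell and 0 rose, with a median of -0.72 and sums of 6017 and 7610 against 7854 and 9959. Among these 4, Fgb, Ttr and Apoa1 also fell on the visceral endoderm list, and only Serpina1a is not on that list. Serpina1a (alpha-1-antitrypsin) fell by 0.94 (limma adjusted p = 0.00024), whereas Alb (albumin), itself a ligand of both receptors, differed by -0.10 (limma adjusted p = 0.158). Of the biliary list 8 of 10 were tested, 3 fell and 0 rose, among them the epithelial adhesion gene Epcam by 1.58 (limma adjusted p = 3.63e-05) and the tight junction gene Cldn4 by 0.98 (limma adjusted p = 8.26e-07). The biliary sums were 94220 and 120913 against 98327 and 139042, mostly Spp1 (osteopontin), which differed by -0.11 (limma adjusted p = 0.162). Of the fibroblast list 10 of 10 were tested, 6 fell and 0 rose, among them Lum (lumican) by 0.91 (limma adjusted p = 5.68e-06) and Pdgfra (a receptor for platelet-derived growth factor) by 0.48 (limma adjusted p = 0.00028), while Col1a1 differed by 0.05 (limma adjusted p = 0.634). The fibroblast sums were 798096 and 1008283 against 927819.5 and 1108431. DESeq2 called 2 genes on the hepatocyte list and 3 on the fibroblast list, and neither Serpina1a nor Pdgfra. The part of these cell types in the differences of the 6 genes was not tested. Macrophage markers were low: Adgre1 and Fcgr1 were at 0 in all 4 libraries, and 5 of 12 genes were tested. Of these 1, Cd14, fell by 0.72 (limma adjusted p = 0.000581) and 0 rose. The median was 0.01, and Cd68 was higher by 0.39 to 0.41 over 9 settings, without a call in the main fit. The macrophage sums were 536 and 617 against 673 and 695.

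**Figure D5:**
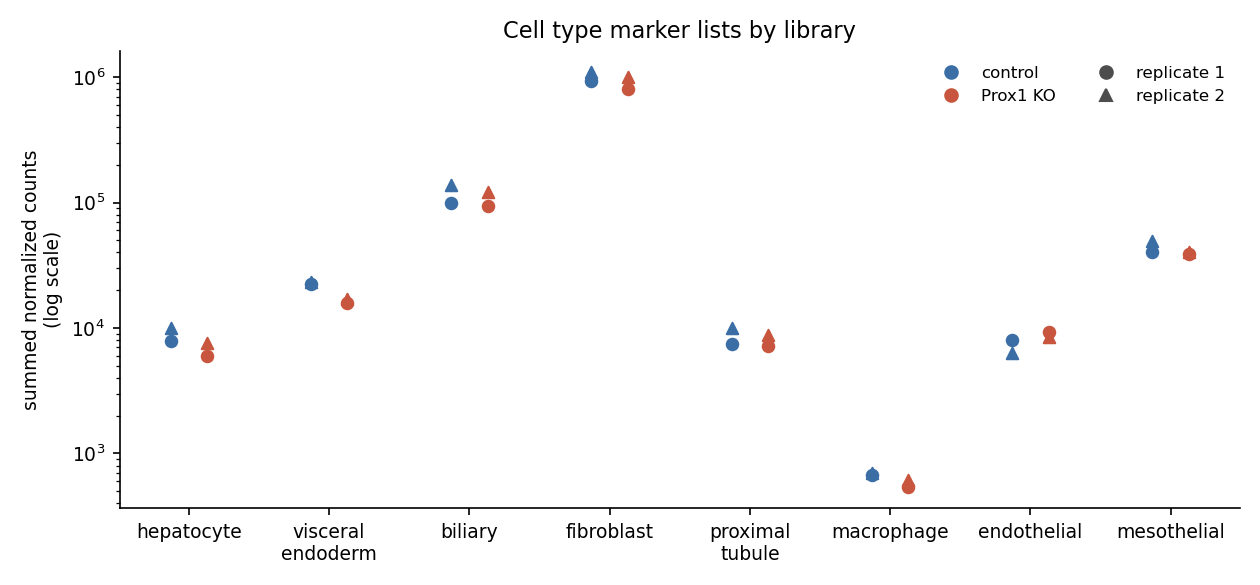
Summed normalized counts (vertical axis, log scale) of 8 cell type marker lists in each library, with control libraries in blue, Cre libraries (Prox1 KO) in red, circles for replicate 1 and triangles for replicate 2. The visceral endoderm sums are set apart by group (15894 and 16891 against 22483 and 23438). The hepatocyte, macrophage and mesothelial sums are likewise lower in both Cre libraries than in both controls, and the endothelial sums are higher. The biliary, fibroblast and proximal tubule sums are ordered by replicate number.

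The tested protein-coding genes whose profile over the 4 libraries was most like that of each complex gene were found by Euclidean distance on the mean-centred log2 scale, a description over 4 libraries. For Lrp2 they were Bex1 (distance 0.0736), Troap (0.128) and Dnajc22 (0.153), and only these 3 genes lay within 0.2. Bex1 was at 140.3 and 174 normalized counts in the Cre libraries and at 445 and 439 in the controls. The profile of Cubn was near those of B3gnt3 (0.0634) and Vil1 (0.0643), with 51 genes within 0.2. Vil1 encodes villin, a protein of the brush border microvilli on which cubilin is found. It was at 909 and 1121 normalized counts against 1513 and 2089. Nearest to Amn were Pdgfb (0.0396), Wfikkn2 (0.052) and Nostrin (0.0553), with 31 genes within 0.2, and nearest to Clu were Lgals4 (0.0656), Apob (0.099) and Oit1 (0.103), with 44. The flatter profiles of Dab2 and Lrpap1 had 519 and 5809 genes within 0.2, with Egfr among the nearest of Dab2 (0.0437) and Itga2b nearest to Lrpap1 (0.00875).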

How the data were processed

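RNA-seq libraries (dUTP protocol, paired-end reads of 100.0 bases) were available for 4 samples, 2 labelled Prox1 KO and 2 controls, grouped and numbered from the labels. STAR and mm10 were used for mapping, and the authors deposited gene values as a signal made by dividing read counts by DESeq2 size factors. The counting tool, its use of strand and the annotation release are not given in the sources used here. The authors' comparison table (fold changes, p-values) was not used. The smallest step in each library gave back whole reads for 100.0% of its values (tolerance 0.001), in total 42469031 to 48524008 per library. Counting error is thus small for Clu or Lrpap1 and larger for Lrp2 and Amn, with 120.0 to 765 reads, and it does not cover amplification, since no molecular identifiers were used.

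The 15809 of 55397 genes whose mean reached 10 normalized counts were tested on log2(normalized count + 1) with limma 3.58.1 in R 4.3.3, with a variance trend and with replicate number as a block. P-values were adjusted by Benjamini-Hochberg over all of them and called under 0.05. Fold changes are on this scale, which understates those of low genes. SEs are limma's. With the block, a single residual degree of freedom remained per gene, given by how far the differences within the 2 pairs disagreed. limma combined it with a variance trend over all genes tested, so SEs and p-values also draw on other genes. They cover these cultures only. Same-numbered libraries deviated together (correlation 0.402 over 15809 genes, 0.331 over 15250 autosomal genes), and the study's methods use the MEF line as a covariate. With 2 against 2 libraries, an exact permutation test of a single value cannot go below p = 0.333, so none was run. Same-group libraries differed beyond sampling noise in 34.2% and 35.4% of genes (chi-square test) and none was counted as a duplicate. Alternatives were no block, pseudocounts of 0.1 and 10, no filter, a mean of at least 50, TMM factors, edgeR 4.0.16 (quasi-likelihood test) and DESeq2 1.42.0 on recovered reads (edgeR 1800 calls, DESeq2 483), each replicate left out, and the longest transcript as the length. DESeq2 was run on all 55397 genes with its own filter, and edgeR on the 15809. Scripts were tested on simulated data.

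The complex genes, lists and tests were chosen with earlier results of these data known. The genes named are the 6, Prox1, in each list by role the 4 called genes with the largest change and the 2 with the highest level per kilobase, in each marker list up to 4 called genes and the 2 most abundant, and the 3 nearest profiles of each complex gene. Xist and marker genes at or near 0 are outside the rule and were named after their values were seen. Levels per kilobase use the exon union of GENCODE vM21 (GRCm38), which held 55137 of the 55397 identifiers, and all 213 listed genes matched. Promoter windows are RefSeq's, with entries for 5 of the 6 genes. Clu had no entry. Results for some genes of the lists and nearest profiles are not reported here.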

Additional observations from a re-analysis of the deposited data

How the results depend on the processing

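The log2 differences of the 6 genes kept their direction under every alternative tried. Dropping the block or changing the filter cannot move these estimates in limma, so those settings were no check on them. Over 9 settings the differences ran from -1.49 to -1.45 for Lrp2, -0.78 to -0.77 for Cubn, -0.73 to -0.69 for Amn, -0.23 to -0.23 for Dab2, -0.12 to -0.11 for Lrpap1 and -0.72 to -0.72 for Clu. Without replicate 1 or without replicate 2, the remaining pair gave -1.60 to -1.37 for Lrp2, -0.86 to -0.69 for Cubn, -0.76 to -0.68 for Amn, -0.23 to -0.22 for Dab2, -0.11 to -0.11 for Lrpap1 and -0.87 to -0.56 for Clu. A single pair has no residual degrees of freedom, so calls have no value there. Without the replicate block, limma called 0 of 15809 genes (1783 at an unadjusted p under 0.05) in place of 1798, and 0 genes of the lists by role (20 at an unadjusted p under 0.05) in place of 23. No list gene thus stays called when the pairing of libraries is dropped. DESeq2 with the block called 483 genes (222 higher, 261 lower), 12 list genes (1 higher, 11 lower, all 12 also called by limma) and 2 of the 6 genes between replicate numbers in place of 4. DESeq2 was run on all listed genes with its own filter, whereas the main limma fit and edgeR had the 15809. The cause of its lower count was not tested. Its lower count took away the calls of Vldlr, Gipc2, Myo6, Epn2, Cltb, Ehd3, Vdr, A2m, Apoa1, Afp, Serpina1a, Pdgfra, Dcn, Egfl7 and Msln, and it gave no adjusted p for Vwf and Muc16, both called by limma. The other alternatives called 1678 to 2091 genes and 23 to 24 list genes, and 4 of the 6 genes between replicate numbers. Without a filter on low values, 4 more named marker genes passed the threshold (Aqp1, Spp1, Cd68 and Cpe). No value reversed. The order of levels per kilobase held in 4 of 4 libraries with either length. Among the 6 genes, depth limits Lrp2 and Amn most, which had the fewest reads.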

Other observations

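Endothelial and mesothelial markers gave calls in both directions, where 5.09% of all tested genes were called higher and 6.29% lower. Of the endothelial list 7 of 10 genes were tested, 3 rose and 1 fell, with sums of 9375 and 8513 normalized counts in the Cre libraries against 7976 and 6316 in the controls. Kdr, a receptor of vascular endothelial growth factor, was at 938 and 770.3 against 564 and 509 and rose by 0.67 ± 0.08 on the log2 scale (limma adjusted p = 4.75e-05). Flt1, another such receptor, rose by 0.32 (limma adjusted p = 0.000609). The defining genes Pecam1, Cdh5 and Tie1 were at or under 12.5 normalized counts in every library. Of the mesothelial list 6 of 8 were tested, 2 rose and 2 fell, with sums of 39103 and 40327 against 40600.0 and 49429. DESeq2 called 2 genes on each of these lists. Upk1b, a uroplakin, was at 787 and 647 against 427 and 383 and rose by 0.82 ± 0.08 (limma adjusted p = 1.58e-05), whereas Msln (mesothelin) fell by 0.37 (limma adjusted p = 0.00428), a call that DESeq2 did not make.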
